A study of Homo sapiens with 5 samples.

Results

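The genes of cholesterol and fatty acid synthesis were followed across 5 expression arrays of cells differentiated from H1, a human embryonic stem cell line. The members were taken by name from a fixed list of 31 genes, as the probes whose platform gene symbol is on that list, and 30 of the 31 had 1 or more named probes, 47 of the array's 47299. They fall into a sterol branch of 18 enzymes, a fatty acid branch of 9 enzymes and 4 genes of regulation and transport. The sterol branch was measured in 17 genes, all detected on all 5 arrays, since FDFT1 was not analysed here. The fatty acid branch was measured in all 9, of which 8 were detected on all 5 arrays, and of the 4 regulators 3 were detected (STARD4 was not above background on any array). For comparison, 20041 genes of the array had a named probe, of which 10976 passed detection on some array and 7110 on every array.

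All groups were H1 cells on a matrigel coating in which mesoderm had been induced with the GSK3 inhibitor CHIR99021, which switches on canonical WNT signaling. The agents were present between day 2 and day 5. They were IWP2, which blocks WNT secretion, LY294002, which inhibits phosphoinositide 3-kinase (PI3K), insulin, and the pair IWP2+LY294002, while control cells had basal differentiation medium. All were harvested on day 10, so the agents were last given days before the measurement. Each group is 1 array of 1 cell line, so no difference could be set against a spread between replicates and no test was made. A level is a normalized log2 intensity, a difference of 1 is 2-fold, and calling a gene higher or lower required detection on the pair of arrays compared and a difference of at least 2-fold. Detected probes numbered 13173 on the LY294002 array, the fewest, and 14723 on the IWP2 array, the most. The LY294002 array was also the dimmest, with a median intensity of 106.9 against 118.2 on the brightest, the insulin array. The gap was wider among bright probes, with a 95th percentile of 469.7 on the LY294002 array, 674.7 in the control and 815.3 with insulin. Differences were taken after quantile normalization, which gives all arrays the same distribution, so those with LY294002 depend on that step. All differences from the control share the same control array.

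Cholesterol is built from acetyl-CoA through mevalonate and isoprenoid units to squalene, which is closed to lanosterol and then trimmed to cholesterol by a chain of reductases, demethylating enzymes and isomerases. Fatty acids are built from the same acetyl-CoA, which is carboxylated, condensed to palmitate, and then lengthened and desaturated. Both routes are transcribed under the SREBP factors, which sterols hold back through INSIG proteins. Insulin signaling through PI3K and AKT is known to raise SREBP-1c activity and fatty acid synthesis in liver. The liver is a major site of both routes.

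Promoters were examined because many of these genes are known SREBP targets and SREBP acts there together with NF-Y, which binds CCAAT. The windows run from 250 bases before to 50 bases after the start in RefSeq on GRCh38.p14, and 27 of the 31 members had one. The letters TCACNCCAC (GTGGNGTGA on the other strand), a form of the sterol regulatory element, were found in the window of 1 member, SREBF2, and in 1.39% of the 27305 genes with a window. The letters CCAAT, read on the other strand as ATTGG, were found in 13 of 15 sterol genes, 6 of 8 fatty acid genes and 3 of 4 regulators, against 39.7% of all genes, and at least 2 copies were found in 10 of the 15 sterol and 4 of the 8 fatty acid genes, against 12.9%. The GC box letters CCGCCC, read on the other strand as GGGCGG, were found in 14 of the 15 sterol and 7 of the 8 fatty acid genes, against 48.3%. Genes with several windows had more chances of a match, a match is not shown to be a site, and a window without these letters says nothing of binding elsewhere. Shown are the sterol genes MVD (chr16:88663042-88663341, minus strand), EBP (chrX:48521558-48521857, plus strand) and TM7SF2 (chr11:65111622-65111921, plus strand), as examples of 3 patterns. MVD was lower and TM7SF2 higher on the inhibitor arrays. EBP was lower with LY294002 and with both inhibitors, and higher with insulin. They are followed by SREBF2 (chr22:41832855-41833154, plus strand), the one window with the sterol element, and by the desaturase genes SCD (chr10:100346983-100347282, plus strand) and FADS1 (chr11:61816954-61817253, minus strand). Capitals mark CCAAT in either orientation and, in SREBF2, the sterol element.
MVD: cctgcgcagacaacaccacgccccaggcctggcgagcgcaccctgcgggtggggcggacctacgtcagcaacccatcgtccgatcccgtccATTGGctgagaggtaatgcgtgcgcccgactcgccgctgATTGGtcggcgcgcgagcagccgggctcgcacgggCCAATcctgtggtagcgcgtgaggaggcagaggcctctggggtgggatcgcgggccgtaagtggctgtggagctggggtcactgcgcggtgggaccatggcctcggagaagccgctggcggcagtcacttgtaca
EBP: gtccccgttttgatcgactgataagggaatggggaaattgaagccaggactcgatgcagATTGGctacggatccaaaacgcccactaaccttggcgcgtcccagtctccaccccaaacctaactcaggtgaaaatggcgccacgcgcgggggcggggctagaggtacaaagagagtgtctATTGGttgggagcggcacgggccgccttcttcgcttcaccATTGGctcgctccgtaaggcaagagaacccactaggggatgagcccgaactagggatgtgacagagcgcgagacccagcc
TM7SF2: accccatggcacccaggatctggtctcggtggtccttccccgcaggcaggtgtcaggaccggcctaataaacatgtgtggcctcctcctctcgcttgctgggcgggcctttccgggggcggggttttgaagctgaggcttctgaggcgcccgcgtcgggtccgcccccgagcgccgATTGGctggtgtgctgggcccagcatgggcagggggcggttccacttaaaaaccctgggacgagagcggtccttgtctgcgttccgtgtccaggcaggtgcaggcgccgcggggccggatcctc
SREBF2: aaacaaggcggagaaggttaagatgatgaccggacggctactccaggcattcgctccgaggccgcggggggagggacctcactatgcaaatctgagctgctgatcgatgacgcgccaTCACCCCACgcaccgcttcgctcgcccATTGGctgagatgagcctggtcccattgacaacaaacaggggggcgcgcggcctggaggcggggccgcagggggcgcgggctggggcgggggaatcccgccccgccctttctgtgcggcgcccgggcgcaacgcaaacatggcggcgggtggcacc
SCD: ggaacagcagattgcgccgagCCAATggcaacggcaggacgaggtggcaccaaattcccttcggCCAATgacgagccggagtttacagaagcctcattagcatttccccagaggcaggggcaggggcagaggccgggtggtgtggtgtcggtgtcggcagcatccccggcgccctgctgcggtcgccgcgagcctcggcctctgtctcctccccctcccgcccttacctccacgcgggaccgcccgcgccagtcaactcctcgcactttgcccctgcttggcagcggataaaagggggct
FADS1: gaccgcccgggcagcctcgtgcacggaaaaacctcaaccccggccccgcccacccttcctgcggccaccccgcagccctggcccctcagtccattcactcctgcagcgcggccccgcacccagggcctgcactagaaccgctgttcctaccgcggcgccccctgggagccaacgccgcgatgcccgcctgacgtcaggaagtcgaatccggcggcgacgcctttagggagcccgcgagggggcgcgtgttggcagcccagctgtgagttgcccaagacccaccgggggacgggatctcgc

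Of the 9 fatty acid genes 7 read lower with IWP2, 9 with LY294002 and 8 with both inhibitors than in the control, and the sterol genes split. Of the 10976 genes detected on some array 5461, 5797 and 5582 read lower on those arrays. The 7 and the 8 include FADS2, which was not detected with IWP2 or with both inhibitors. The fatty acid branch median differed from the control by -0.80 with IWP2, -1.33 with LY294002 and -1.05 with both inhibitors, and by 0.47 with insulin. The sterol branch median stayed nearer to the control, at -0.24, -0.25 and -0.20 on the same 3 inhibitor arrays and 0.22 with insulin, but its members ran in both directions. Over all detected genes the median difference lay between -0.06 and 0.00 in these comparisons. In bulk RNA, fewer cells of a type and less RNA per cell cannot be told apart.

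**Figure D1:**
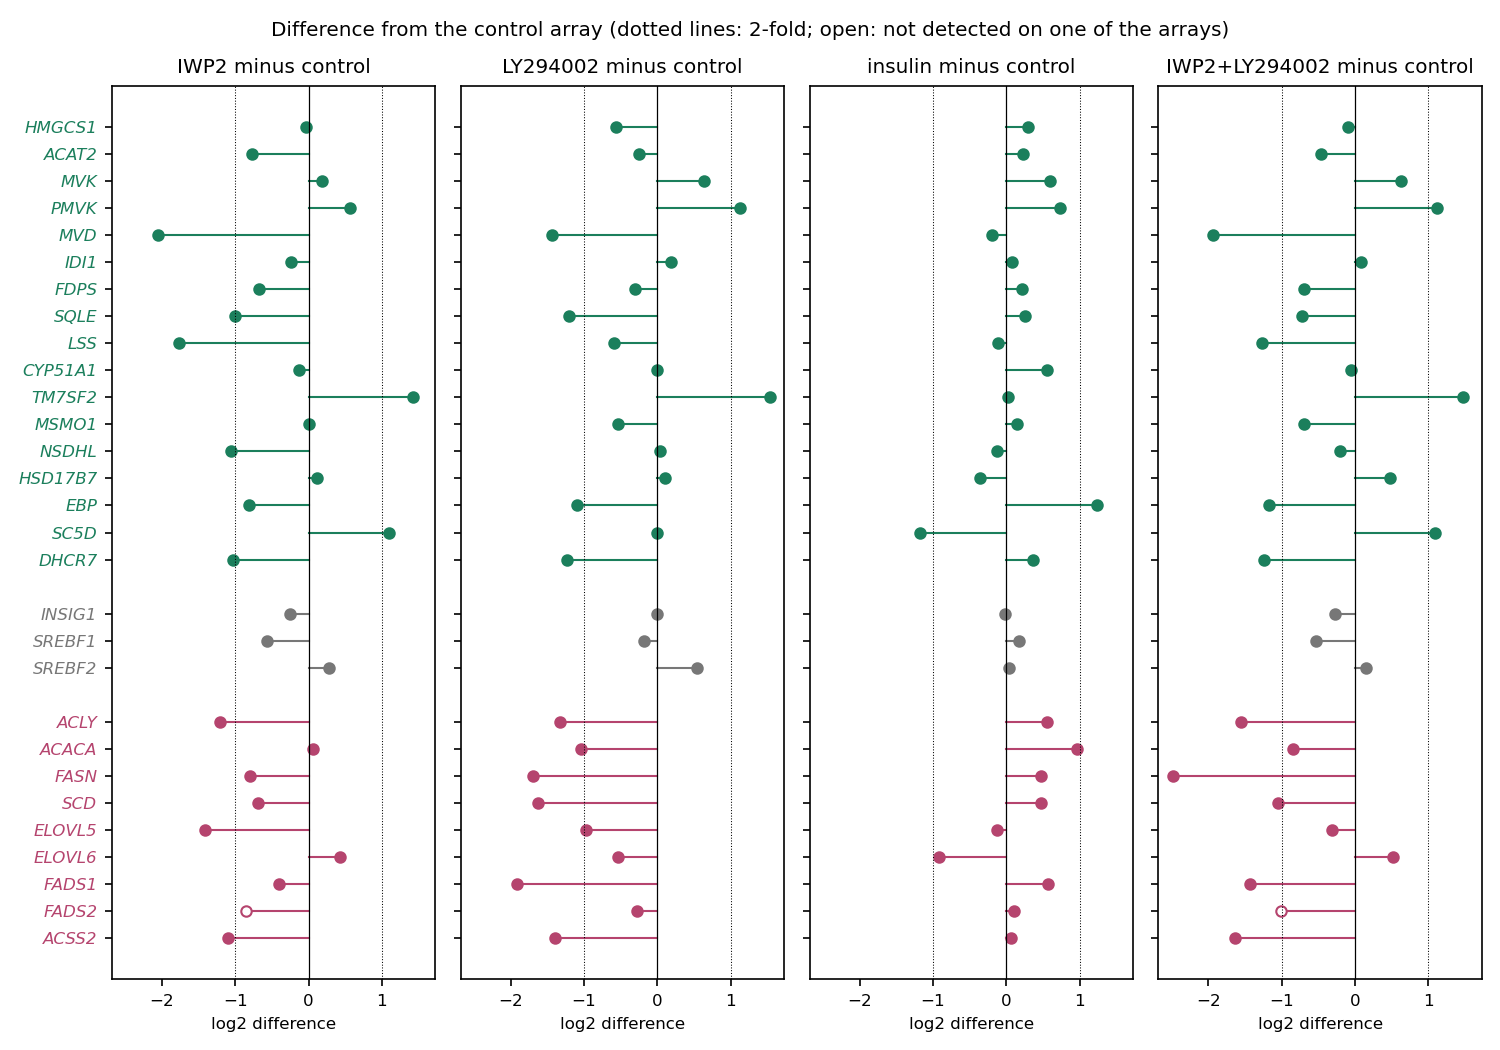
Log2 difference of each member from the control array, 1 panel per treated array, with genes down the page in pathway order (sterol branch green, regulators grey, fatty acid branch red), dotted lines at 2-fold, and open points where the gene was not detected on one of the arrays. With LY294002 all 9 fatty acid genes lie left of 0, while TM7SF2 and PMVK lie right of the 2-fold line on the LY294002 and double-inhibitor arrays.

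Fatty acid synthesis starts from cytosolic acetyl-CoA, which ACLY makes from citrate and ACSS2 from acetate. ACLY read 9.35 with IWP2, 9.22 with LY294002, 11.10 with insulin and 8.99 with IWP2+LY294002, against 10.55 in the control. ACSS2 read 10.41, 10.10, 11.58 and 9.87 on the same treated arrays, against 11.51 in the control. Both were thus lower by 2-fold or more on each inhibitor array, with ACLY differences of -1.20, -1.33 and -1.56 and ACSS2 differences of -1.10, -1.40 and -1.64 for IWP2, LY294002 and both. For ACSS2 the mean over detected probes, which includes a dim probe, gave -0.38, -0.92 and -0.73, all under 2-fold. ACACA, the carboxylase that commits acetyl-CoA to fatty acids, read 8.58 with IWP2, 7.48 with LY294002, 9.49 with insulin and 7.68 with both inhibitors, against 8.52 in the control. It stood close to the control with IWP2 alone (0.06) and lower with LY294002 (-1.04, but -0.77 without background correction, -0.92 with an offset of 50 and -0.97 with the mean over probes), and the insulin array was the highest (0.96).

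FASN, the synthase that makes palmitate, had the widest spread of any member, 2.95 on the log2 scale from lowest to highest array. It read 12.13 with IWP2, 11.25 with LY294002, 13.41 with insulin and 10.46 with both inhibitors, against 12.94 in the control. The double-inhibitor signal was thus 5.57-fold lower than the control (log2 difference -2.48), and LY294002 alone gave -1.69 and IWP2 alone -0.80. SCD, which puts the first double bond into stearate and palmitate, read 12.01, 11.07, 13.16 and 11.64 on the IWP2, LY294002, insulin and double-inhibitor arrays, against 12.70 in the control. Here LY294002 alone was the lowest (-1.63), and the array with both inhibitors lay above it (-1.05).

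FADS1 and FADS2, neighbouring genes on chromosome 11, encode the delta-5 and delta-6 desaturases of polyunsaturated fatty acids. FADS1 read 9.43 with IWP2, 7.92 with LY294002, 10.41 with insulin and 8.40 with both inhibitors, against 9.83 in the control. LY294002 gave the largest difference of any fatty acid gene on that array (-1.91), and IWP2 alone gave -0.40. FADS2 was dim, at 5.81 with LY294002 and 6.20 with insulin, against 6.10 in the control, and was not detected with IWP2 or with both inhibitors. Those arrays therefore give only bounds, under the main processing at least 1.78-fold lower with IWP2 and at least 1.56-fold lower with both. The bounds do not hold under every setting. Without background correction the FADS2 log2 differences were -0.31 with IWP2 and -0.36 with both, and with an offset of 50 they were -0.51 and -0.59. The elongases ELOVL5 and ELOVL6, which lengthen polyunsaturated and saturated chains, differed from each other. ELOVL5 read 7.99 with IWP2, 8.42 with LY294002, 9.27 with insulin and 9.09 with both inhibitors, against 9.39 in the control, so that each inhibitor alone was further from the control than both together. ELOVL6 read 9.97, 9.01, 8.62 and 10.07 on those arrays, against 9.54 in the control. On the probe used, ELOVL6 was the one fatty acid gene whose lowest signal was on the insulin array (-0.92). A second detected ELOVL6 probe was lowest with LY294002 (6.85, against 7.04 with insulin) and gave -0.36 for insulin minus control.

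**Figure D2:**
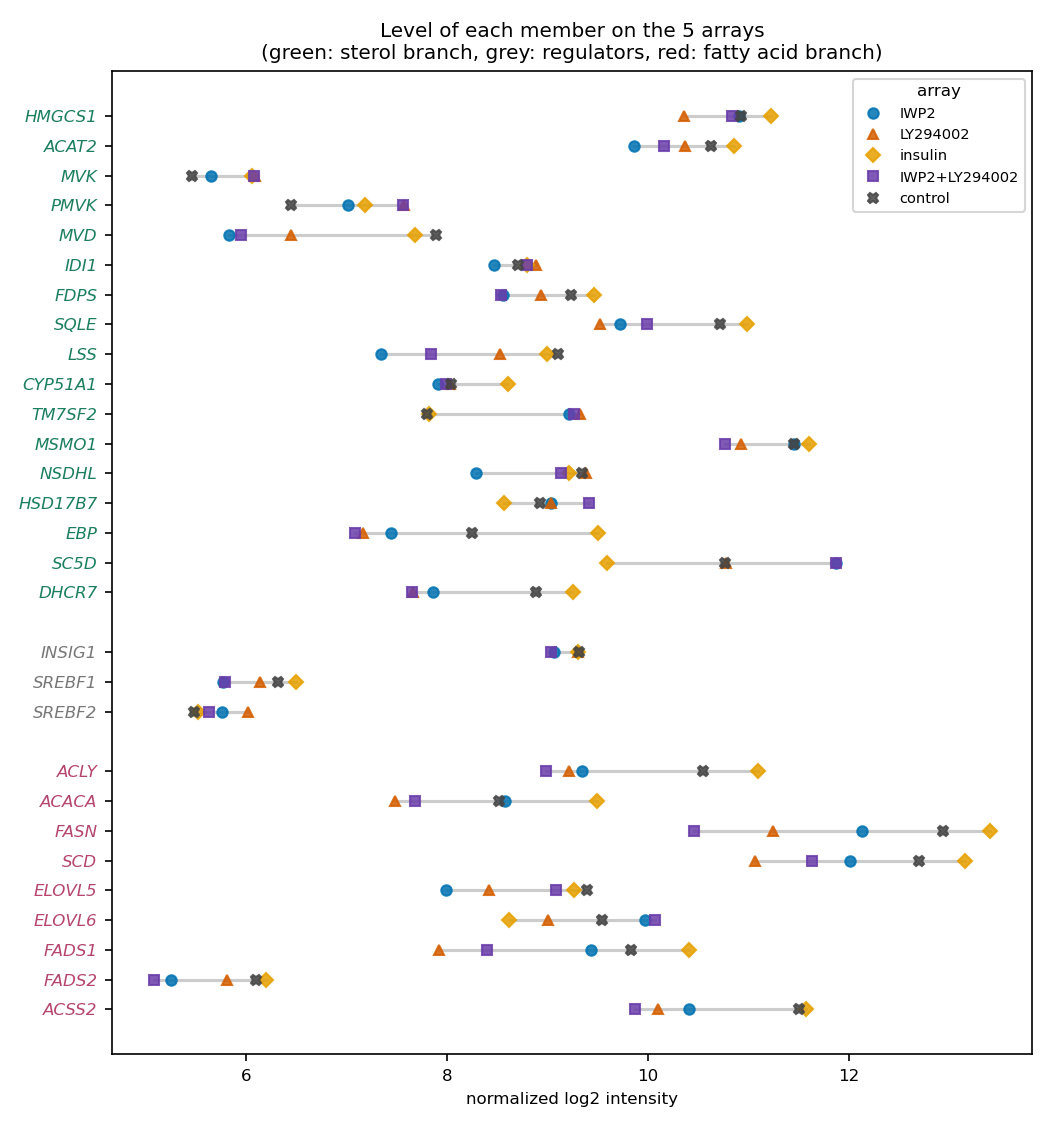
Normalized log2 intensity of the 29 detected members (x axis) on the 5 arrays, 1 row per gene in pathway order, with 1 marker per array and a grey line from the lowest to the highest. FASN is lowest with both inhibitors (10.46) and highest with insulin (13.41), FADS2 was not detected with IWP2 or both inhibitors, and TM7SF2 separates the 3 inhibitor arrays (9.22 to 9.33) from insulin and control (7.82 and 7.80).

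The sterol branch opens with the mevalonate steps. HMGCS1, which makes HMG-CoA, read 10.91 with IWP2, 10.36 with LY294002, 11.23 with insulin and 10.84 with both inhibitors, against 10.93 in the control, and ACAT2, the thiolase before it, read 9.86, 10.37, 10.86 and 10.16, against 10.63. Neither passed 2-fold on any array. MVK and PMVK, the kinases that phosphorylate mevalonate, read higher than the control on every treated array. PMVK read 7.01 with IWP2, 7.57 with LY294002, 7.18 with insulin and 7.56 with both inhibitors, against 6.45 in the control, and MVK read 5.65, 6.09, 6.06 and 6.08, against 5.46. The PMVK difference reached 1.12 with LY294002 and 1.12 with both inhibitors, and 0.65 in each without background correction. MVK lay close to the lowest detected signal in the control (5.32). Without background correction its differences were 0.07 with IWP2, 0.24 with LY294002 and 0.22 with insulin.

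MVD, the decarboxylase that follows these kinases, went the opposite way. It read 5.83 with IWP2, 6.45 with LY294002, 7.68 with insulin and 5.95 with both inhibitors, against 7.89 in the control. The 3 inhibitor arrays lay at or below 6.45 and the other two at or above 7.68, with differences of -2.05, -1.43 and -1.94 for the inhibitors, which were -1.15, -0.87 and -1.10 without background correction. IDI1, the isomerase of isoprenoid units, varied by 0.42 over all 5 arrays, the least of the sterol genes. FDPS, which makes farnesyl diphosphate, read 8.56, 8.94, 9.46 and 8.54 on the IWP2, LY294002, insulin and double-inhibitor arrays, against 9.24 in the control.

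SQLE and LSS oxidise squalene and close it to lanosterol. SQLE read 9.72 with IWP2, 9.52 with LY294002, 10.99 with insulin and 9.99 with both inhibitors, against 10.72 in the control. LSS read 7.34, 8.53, 9.00 and 7.84 on those arrays, against 9.11 in the control. Both read below the control on each inhibitor array, but SQLE with both inhibitors (-0.73) and LSS with LY294002 (-0.59) were under 2-fold. SQLE was furthest below with LY294002 (-1.20, and -0.81 with the mean over probes). LSS was furthest below with IWP2 (-1.77), a difference that was smaller but still past 2-fold with the mean over probes.

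The steps after lanosterol also held genes of both directions. TM7SF2, a sterol C14-reductase, read 9.22 with IWP2, 9.33 with LY294002, 7.82 with insulin and 9.27 with both inhibitors, against 7.80 in the control, or 2.67-, 2.89- and 2.77-fold higher with the inhibitors. SC5D, the C5-desaturase, read 11.87 with IWP2, 10.78 with LY294002, 9.59 with insulin and 11.87 with both inhibitors, against 10.77 in the control. It was higher by 1.10 and 1.09 where IWP2 had been given, within 0.01 of the control with LY294002 alone, and lower by 1.18 with insulin. EBP, the sterol isomerase, was the reverse of SC5D with insulin: it read 7.44, 7.16, 9.50 and 7.08 on the IWP2, LY294002, insulin and double-inhibitor arrays, against 8.25 in the control. Its differences with LY294002 (-1.09) and with both inhibitors (-1.18) were -0.76 and -0.81 without background correction.

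DHCR7, the reductase of the last step in one arm of the pathway, read 7.86 with IWP2, 7.66 with LY294002, 9.26 with insulin and 7.65 with both inhibitors, against 8.89 in the control. The differences of the 3 inhibitor arrays (-1.03, -1.23 and -1.24) were past 2-fold, but without background correction (-0.80, -0.95 and -0.96) none was, and the IWP2 value was -0.82 with the mean over probes. NSDHL, a dehydrogenase of C4-demethylation, read 8.29 with IWP2 alone, against 9.35 in the control (-1.06, and -0.88 without background correction), and 9.38, 9.22 and 9.14 on the LY294002, insulin and double-inhibitor arrays. MSMO1, the C4-methyl oxidase, CYP51A1, the C14-demethylase, and HSD17B7, a ketoreductase, ranged over 0.84, 0.70 and 0.84 on the log2 scale and did not pass 2-fold against the control on any array.

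The 3 detected regulators, INSIG1, SREBF1 and SREBF2, varied by 0.28, 0.73 and 0.54 on the log2 scale over the 5 arrays. INSIG1, which retains the SREBP complex when sterols are plentiful and is itself an SREBP target, read 9.07 with IWP2, 9.31 with LY294002, 9.31 with insulin and 9.04 with both inhibitors, against 9.32 in the control. SREBF1, which encodes SREBP-1, read 5.77, 6.14, 6.50 and 5.79, against 6.32 in the control. SREBF2, which encodes SREBP-2, read 5.76, 6.02, 5.52 and 5.63, against 5.48 in the control, close to the lowest detected signal there (5.32). None of the 3 passed 2-fold against the control. With between 1.71% and 12.0% of all genes past 2-fold in one direction, nothing particular to so few genes can be read from that. Transcript signals do not show how much SREBP protein was processed.

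IWP2 against the control addressed the effect of blocking WNT secretion. In the sterol branch 5 of 17 genes were at least 2-fold lower (MVD, LSS, NSDHL, DHCR7 and SQLE) and 2 higher (TM7SF2 and SC5D), where 7.70% of all 8414 genes measured on that pair of arrays were lower and 6.94% higher. SQLE and DHCR7 (-1.03) lay at the threshold, and between 2 and 3 sterol genes were lower without background correction, with 75th percentile scaling, with an offset of 50, with the mean over probes or in the authors' deposited table. In the fatty acid branch 3 of 8 were lower (ELOVL5, ACLY and ACSS2) and 0 higher, and the lower count was 2 with the mean over probes. The sterol median minus the fatty acid median was 0.56.

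LY294002 against the control addressed PI3K inhibition. In the fatty acid branch 6 of 9 genes were at least 2-fold lower (FADS1, FASN, SCD, ACSS2, ACLY and ACACA), where 10.2% of 7793 genes were lower. That count was 4 with the mean over probes, 5 without background correction or with an offset of 50, and 7 with 75th percentile scaling. All 9 had a negative difference, as did 5797 of the 10976 genes detected on some array. In the sterol branch 4 of 17 were lower (MVD, DHCR7, SQLE and EBP) and 2 higher (TM7SF2 and PMVK), where 9.02% of all genes were higher. Without background correction 1 sterol gene was lower and 1 higher, and with the mean over probes the sterol median was -0.04 and the fatty acid median -0.97. The sterol median minus the fatty acid median was 1.07, the widest gap of the 4 comparisons with the control.

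Insulin against the control gave small differences. In the sterol branch 1 of 17 genes was at least 2-fold higher (EBP, 1.24) and 1 lower (SC5D, -1.18), where 1.71% of 8680 genes were higher and 1.88% lower, and 12 of 17 had a positive difference. In the fatty acid branch 0 of 9 passed 2-fold in either direction, and 7 of 9 had a positive difference, led by ACACA (0.96), FADS1 (0.57) and ACLY (0.55). Of the 10976 genes detected on some array 5445 had a positive difference. With 75th percentile scaling 1 fatty acid gene passed 2-fold. The sterol median minus the fatty acid median was -0.24, and -0.11 with that scaling.

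With both inhibitors 5 of 8 fatty acid genes were at least 2-fold lower than the control (FASN, ACSS2, ACLY, FADS1 and SCD) and 0 higher, where 10.9% of 7858 genes were lower. The lower count was 4 with the mean over probes and 6 with detection at a p-value under 0.05. In the sterol branch 4 of 17 were lower (MVD, LSS, DHCR7 and EBP) and 3 higher (TM7SF2, PMVK and SC5D), where 12.0% of all genes were higher. Without background correction 2 sterol genes were lower, and with 75th percentile scaling the sterol median was -0.08. The gap between the branch medians was 0.85. With FADS2 at its bound, the fatty acid median kept the values given for IWP2 (-0.80) and for both inhibitors (-1.05).

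**Figure D3:**
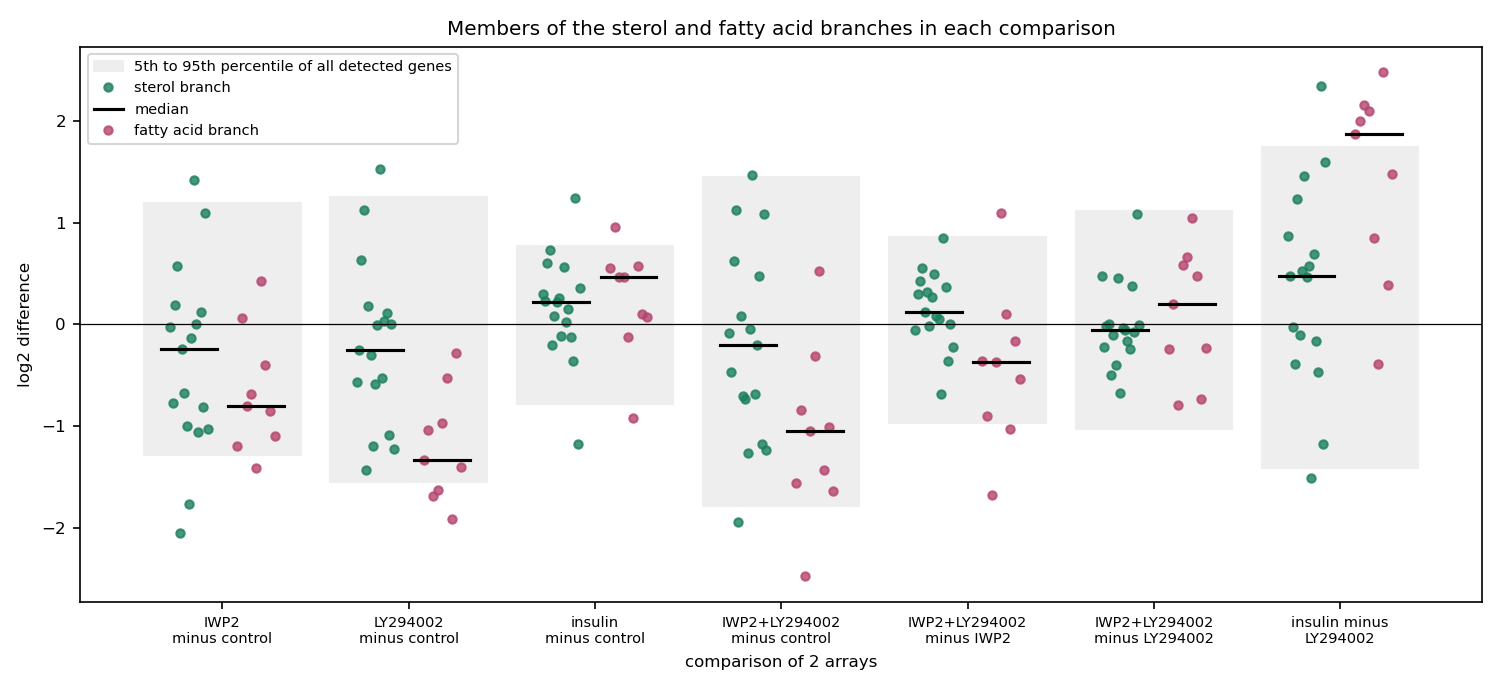
Log2 differences (y axis) of the sterol (green, left) and fatty acid (red, right) members in 7 comparisons of 2 arrays (x axis), with black lines at the branch medians and grey bands from the 5th to the 95th percentile of the 10976 detected genes. The bands show single genes and are no yardstick for a median. The fatty acid median is below the sterol median in the 3 inhibitor comparisons with the control (-0.80, -1.33 and -1.05) and above it for insulin minus LY294002 (1.87).

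Where LY294002 was added to IWP2, FASN and FADS1 read lower still. Against the IWP2 array, the double-inhibitor array was at least 2-fold lower for 2 of 8 fatty acid genes (FASN, -1.68, and FADS1, -1.03) and higher for 1 (ELOVL5, 1.10), where 3.45% of 8214 genes were lower and 2.96% higher. Both FADS1 and ELOVL5 were near the threshold: without background correction 0 fatty acid genes were higher, and 1 was lower without background correction, with 75th percentile scaling, with an offset of 50 and in the authors' deposited table. Of the 17 sterol genes 0 passed 2-fold, near the background share, with NSDHL (0.85) and MSMO1 (-0.69) furthest from IWP2 alone, and the branch medians were 0.12 for sterol and -0.37 for fatty acid genes.

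Adding IWP2 to LY294002 gave branch medians of -0.06 for sterol and 0.20 for fatty acid genes, where the median over all genes was 0.01. Against the LY294002 array, 2 of 28 members were at least 2-fold higher on the double-inhibitor array (SC5D, 1.09, and ELOVL6, 1.05) and 0 lower. Of 7691 genes 5.92% were higher and 4.37% lower, so the count of higher members was near the background share. ELOVL6 was under 2-fold without background correction, with the mean over probes and in the authors' deposited table. SC5D carried nearly the same difference whether IWP2 was given alone (1.10) or on top of LY294002 (1.09).

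The effect of LY294002 with IWP2 minus its effect without it was positive for all 8 fatty acid genes detected on these arrays and for 12 of 17 sterol genes. Of the 10976 genes detected on some array 5693 were positive. The branch medians were 0.86 and 0.28 and the median over all genes 0.04. The difference was at least 1 in size and positive for SCD (1.26) and ELOVL5 (2.07), and for the sterol genes MVD (1.55), SQLE (1.47), LSS (1.09) and DHCR7 (1.02). Without background correction MVD (0.92), LSS (0.83) and DHCR7 (0.80) were under 1. At that size 8.33% of 7271 genes were positive and 9.63% negative. A positive value here means that both inhibitors together lay above the sum of their separate differences. TM7SF2 was negative (-1.48), being equally high with either inhibitor and with both. FASN was nearly additive (0.01).

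**Figure D4:**
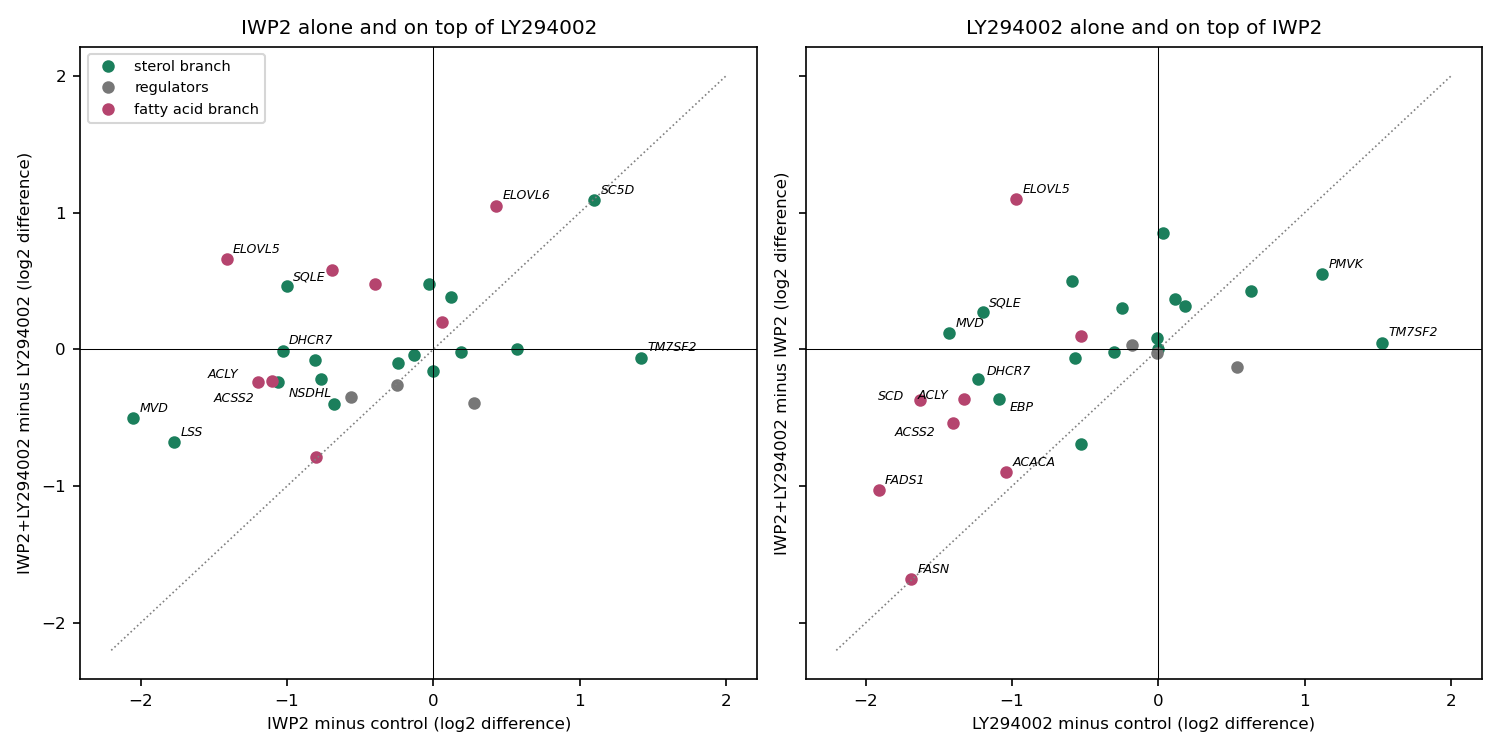
Each point is a member detected on all 5 arrays, with the log2 difference of an inhibitor alone from the control on the x axis and its difference when added to the other inhibitor on the y axis, for IWP2 (left) and LY294002 (right), and a dotted line of equality. FASN and SC5D lie on or next to the line, and ELOVL5 lies left of and above 0 in both panels.

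The x and y values there come from different arrays. For LY294002 the correlation over the 8 fatty acid genes was r = 0.62 and over the 17 sterol genes r = 0.38, against r = 0.42 over 7110 genes. For IWP2 it was r = 0.45 and r = 0.59, against r = 0.34. These describe genes of the same arrays and carry no test.

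Insulin and LY294002 act on PI3K signaling in opposite directions. Between their arrays the fatty acid branch median was 1.87 and the sterol median 0.48, where the median over all genes was 0.03. Medians of marker lists were 4.39 for liver, 2.07 for fibroblast and matrix, -3.41 for cardiomyocyte and -0.18 for proliferation genes. The part of cell types or of PI3K signaling in this was not tested. On the insulin array 6 of 9 fatty acid genes were at least 2-fold higher than on the LY294002 array and 0 lower, where 12.7% of 7736 genes were higher. FADS1 was higher by 2.48, FASN by 2.16, SCD by 2.10, ACACA by 2.00, ACLY by 1.87 and ACSS2 by 1.48. Among the 17 sterol genes EBP (2.34), DHCR7 (1.60), SQLE (1.46) and MVD (1.23, and 0.73 without background correction) were higher and TM7SF2 (-1.51) and SC5D (-1.18) lower, where 11.9% of all genes were lower. The sterol median minus the fatty acid median was -1.39.

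The order of the arrays differed from gene to gene. Of the 8 fatty acid genes detected on all 5 arrays 6 were highest with insulin, and of the 17 sterol genes 8, where 23.7% of 7110 genes were. All 3 inhibitor arrays lay below both insulin and control for 6 of the 8 fatty acid genes (ACLY, FASN, SCD, ELOVL5, FADS1 and ACSS2) and for 9 of the 17 sterol genes, where 23.0% of all genes did so. They lay above both for TM7SF2, HSD17B7 and SC5D and for 0 fatty acid genes, where 25.9% of all genes did so. These orders required no margin. SC5D read 10.78 with LY294002 against 10.77 in the control, and HSD17B7 differed by 0.12 with IWP2 and 0.11 with LY294002. Among the sterol genes below both, HMGCS1 differed from the control by -0.03 with IWP2 and CYP51A1 by -0.01 with LY294002.

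Markers of cell types were lower or higher on the same arrays as the fatty acid genes. Of 15 liver markers with a probe, such as AFP and APOC3, 14, 14, 15 and 8 were detected with IWP2, LY294002, insulin and both inhibitors, against 15 in the control. Their summed signal was 30858, 6759, 121727 and 1768 on those arrays, against 110358 in the control, and their median differences from it were -2.10, -4.30, 0.08 and -6.35. With undetected genes at their bound, the last of these was -6.20. With both inhibitors APOA4, APOC3, AHSG, FGG, RBP4, TF and FOXA2 were not detected.

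Fibroblast and matrix markers had medians of -2.08, -2.17, -0.14 and -4.44 on the IWP2, LY294002, insulin and double-inhibitor arrays, with 8, 9, 9 and 3 of the 9 detected, against 9 in the control. Their summed signal was 7218, 6554, 28812 and 937, against 29169 in the control. The 15 cardiomyocyte markers ran the other way, with medians of 2.47, 2.68, -1.04 and 2.52, summed signals of 68410, 57912, 10929 and 66122, against 17429 in the control, and 6 of them (MYH7, CKMT2, NPPA, NKX2-5, IRX4 and SMYD1) not detected with insulin. With those at their bound the insulin median was -0.81. Proliferation genes had medians of -0.24, -0.09, -0.18 and -1.18, and 11, 11, 11 and 9 of 11 were detected, against 11 in the control. Their summed signal was 2570, 3461, 3169 and 1384, against 3404 in the control. The part of these cell types in the lipid gene differences was not tested.

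**Figure D5:**
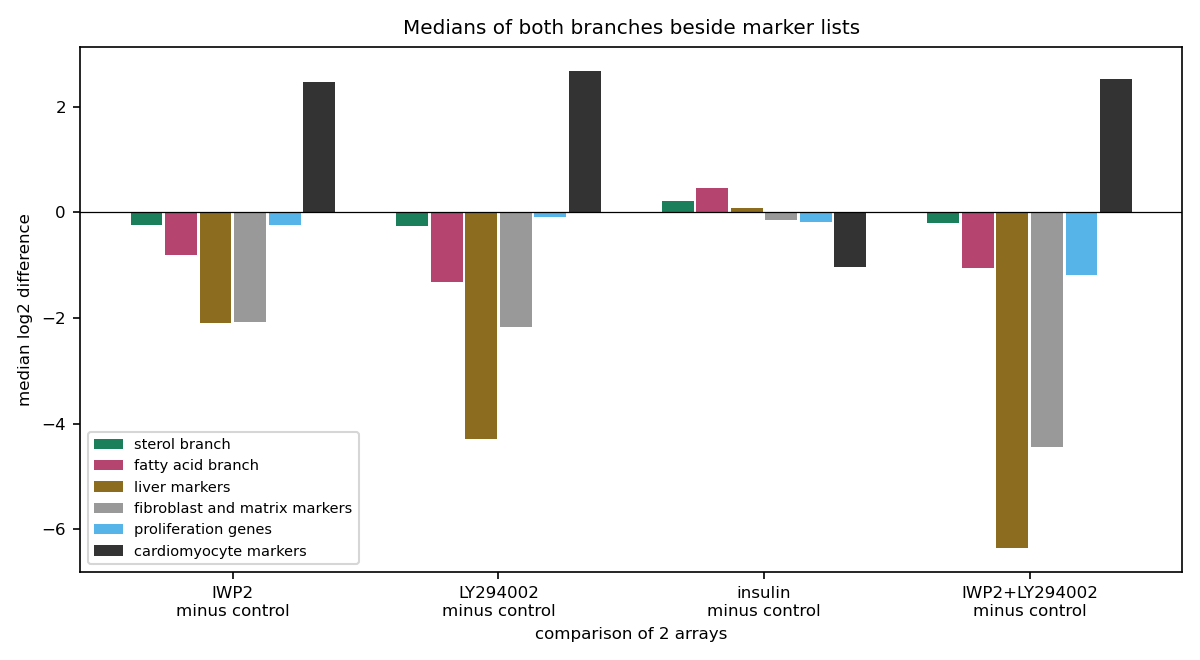
Bars give the median log2 difference from the control (y axis) of both branches and of 4 marker lists for the 4 treated arrays (x axis). On the inhibitor arrays the sterol, fatty acid, liver, fibroblast and matrix, and proliferation bars point down and the cardiomyocyte bars up. The fatty acid bars (-0.80, -1.33 and -1.05) are lowest with LY294002 alone, and the liver bars (-2.10, -4.30 and -6.35) with both inhibitors.

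Other genes of these pathways past 2-fold were mostly lower on the inhibitor arrays. In the list of other fatty acid and glycerolipid genes 3 of 19 were lower with IWP2 and 0 higher, where 7.70% and 6.94% of all genes were. With LY294002 4 of 18 were lower and 0 higher, where 10.2% and 9.02% of all genes were. With insulin 0 of 20 passed 2-fold, where 1.88% of all genes were lower and 1.71% higher. With both inhibitors 4 of 18 were lower and 1 higher, where 10.9% and 12.0% of all genes were. MID1IP1, an activator of acetyl-CoA carboxylase, read 7.63, 6.93, 9.17 and 6.82 on the IWP2, LY294002, insulin and double-inhibitor arrays, against 9.42 in the control. DGAT1, which completes triglycerides, differed by -1.44, -1.89 and -1.75 with the inhibitors. The elongation genes ELOVL1 (-1.10 with IWP2 and -1.52 with both), TECR (-1.24 with LY294002) and HACD2 (-1.16 with LY294002) were lower too, and ELOVL4 was higher with both (1.09).

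In the list of sterol handling genes 4 of 17 were lower and 1 higher with IWP2, against the same 7.70% and 6.94% of all genes. With LY294002 5 of 17 were lower and 0 higher, against 10.2% and 9.02%, and with both inhibitors 6 of 17 were lower and 2 higher, against 10.9% and 12.0%. With insulin 0 of 17 passed 2-fold, against 1.88% lower and 1.71% higher. NR1H3, which encodes the sterol receptor LXR-alpha, read 7.72, 7.61, 8.45 and 7.17, against 9.15 in the control. OSBP, an oxysterol-binding protein, was lower by 1.32, 1.23 and 1.66 with IWP2, LY294002 and both. MYLIP, an LXR target that marks lipoprotein receptors for degradation, differed by -1.27 with IWP2, and VLDLR, a lipoprotein receptor, by 1.21. NPC1, which exports cholesterol from lysosomes, differed by -1.31 and ABCA1, which exports it from the cell, by -1.20 with LY294002. SCARB1, the HDL receptor, differed by -1.88 and MBTPS1, a protease that activates SREBPs, by -1.52 with both inhibitors.

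Probes of 1 gene give the only check within these arrays. Over the array, the 2 brightest detected probes of a gene differed in their log2 difference by a median of 0.43 for IWP2 minus control, 0.45 for LY294002, 0.37 for insulin and 0.42 for both inhibitors. This gap is between probes of single genes and is not a replicate spread. Among members with a second detected probe the same sign was found in 5 of 7, 6 of 8, 8 of 9 and 8 of 8. A second ACLY probe gave -0.88, -0.98, 1.10 and -1.33 for IWP2, LY294002, insulin and both inhibitors. Another ACSS2 probe gave -0.68, -1.58, 0.20 and -0.97, and the second DHCR7 probe -0.62, -0.85, 0.02 and -1.04. Among probes detected on both arrays, no second probe of a member went the other way by 1.5-fold where the first had passed that size.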

How the data were processed

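Expression was measured in 5 samples of differentiated H1 cells on an Illumina expression BeadChip with biotin-labelled cRNA, 1 array per treatment, and each sample's group is its treatment in the labels. Per the file headers, the deposited scanner table holds unnormalized probe intensity with a detection p-value. The authors' deposited value table holds log2 values with a median of 5.01 or 5.02 on every array, in the intensities' order. Its centring and normalization are not given.

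Intensities were corrected with normexp from the detection p-values, quantile-normalized and put on the log2 scale with an offset of 16 (neqc, limma 3.58.1, R 4.3.3), then summarised in Python 3.11.15. A probe was detected at a detection p-value under 0.01, and each gene took its probe of highest mean. Names came from the platform annotation: 30106 probes had 1 symbol, 8 several and 17185 none, and no symbol needed an update. All members could be named, and from the other pathway lists up to 4 genes past 2-fold per comparison with the control. Members and lists were chosen with earlier results of these data known. Recovery of known folds was tested on simulated data, for bright probes only and with a set noise. It says nothing of dim genes such as FADS2, MVK and SREBF2. Alternatives were other background corrections, scalings, offsets, filters and probe rules, and the deposited log2 values. With 1 array per group no test was possible, and the number of arrays limits the precision. Promoter sequences are from RefSeq on GRCh38.p14.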

Additional observations from a re-analysis of the deposited data

Results flagged for a closer look

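ELOVL5 was the one member whose differences for an inhibitor alone and on top of the other had opposite signs, each past 1.5-fold. IWP2 on top of LY294002 gave 0.66 and IWP2 alone -1.41, and LY294002 on top of IWP2 gave 1.10 and LY294002 alone -0.97. The difference between the effects was 2.07 on the log2 scale. It was not tested, since each group has 1 array. Both contrasts use the same arrays and are 1 observation. ELOVL5 has 1 probe, and its 1.10 was 0.88 without background correction. Such opposite effects were found for 2.45% of 7110 genes with IWP2 and 1.98% with LY294002.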

How the results depend on the processing

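With no replicates, a branch median or the difference between branches was taken to have moved if it changed by over 1.5 times or in sign. The fatty acid medians against the control ranged over the 9 alternatives between -0.85 and -0.68 with IWP2, -1.44 and -0.97 with LY294002, 0.36 and 0.47 with insulin, and -1.24 and -1.01 with both inhibitors. The small sterol medians were less steady. The LY294002 value was -0.04 with the mean over detected probes, the double-inhibitor value -0.08 with 75th percentile scaling, and double inhibitor against IWP2 0.06 without background correction. With 75th percentile scaling the insulin difference between branches was -0.11, and the sterol median of the combined-inhibitor difference 0.48. Its difference between branches was -0.30 with the mean over detected probes. For both against LY294002 the sterol median turned from negative to 0.18 with 75th percentile scaling, where the fatty acid median was 0.50. That fatty acid median was 0.34 over genes detected on all 5 arrays and 0.31 with the mean over detected probes, and the difference between branches -0.40 in both. Counts of genes past 2-fold moved by over 1.5 times in these cases. For IWP2 against control, the 5 lower sterol genes became 2 without background correction, 3 with 75th percentile scaling, 3 in the deposited table, 2 with an offset of 50 and 3 with the mean over detected probes. For LY294002 against control, 1 sterol gene was higher without background correction, 1 with 75th percentile scaling and 1 with an offset of 50, and 1 was lower without background correction. For insulin against control, 1 fatty acid gene was higher with 75th percentile scaling. For both inhibitors against control, 2 sterol genes were lower without background correction. For both against IWP2, without background correction 0 fatty acid genes were higher and 1 lower, and 1 was lower with 75th percentile scaling, 1 in the deposited table and 1 with an offset of 50. For both against LY294002, 0 fatty acid genes were higher without background correction, 0 in the deposited table and 0 with the mean over detected probes. The cause was not tested.

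Each single gene's difference was taken again under the alternatives that apply to single genes. Of these values 26 moved by more than the median gap between probes of 1 gene, and 1366 did not. Of the 26, 12 were without background correction, 11 with the mean over detected probes and 3 with an offset of 50. Among the differences past 2-fold, 0 changed sign. FADS2 lay near the lowest detected signal and its size there is not measured. No paired analysis was possible because each group has 1 array, and no replicate could be left out for the same reason.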

Other observations

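Among the other lipid genes, a few were below detection or were higher on the inhibitor arrays. ACSL5, an acyl-CoA synthetase, was not detected on any inhibitor array, and read 7.21 with insulin and 7.01 in the control, so that it was at least 3.34-fold, 2.87-fold and 2.93-fold lower with IWP2, LY294002 and both inhibitors. SOAT2, which esterifies cholesterol in liver and intestine, read 5.82 with IWP2 and 6.64 with insulin, against 6.92 in the control, and was at least 2.70-fold lower with LY294002 and at least 2.75-fold lower with both inhibitors. INSIG2, a relative of INSIG1, was higher by 1.32 and GGPS1, which makes geranylgeranyl diphosphate, by 1.05 with both inhibitors. These 4 genes were picked out after their values were seen. The bounds for ACSL5 and SOAT2 are those of the main processing.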
